A study of Homo sapiens with 6 samples.

Results

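The recovery of transcript levels after auxin removal was examined in the human colon cancer line HCT116 by setting the 2 libraries of the washout group against the 2 libraries of the IAA group. These are 4 of the 6 libraries of the study, and the 2 untreated control libraries served only as a reference and to estimate the spread. All groups share the same engineered background: ENL fused to an auxin-inducible degron (AID), and stable expression of the E3 ligase AtAFB2. Control cells received no auxin. IAA cells received the auxin indole-3-acetic acid for 3 h at 500 um, as the labels spell the unit. Washout cells received the same treatment, were rinsed with PBS and were then kept in normal medium for 48 h. AID clones were selected with puromycin and blasticidin per the labels, and it is not stated whether the cells are 1 clone. No group was rinsed without prior IAA, and no group lacked the degron, so removal of IAA, the rinse and the added culture time cannot be told apart, and neither can IAA itself and loss of ENL. What a replicate is was not given either, so p-values measure only the spread between these samples.

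ENL, encoded by MLLT1, reads acetylated and crotonylated lysines on histone tails through its YEATS domain and belongs to the super elongation complex and to complexes with the methyltransferase DOT1L. These complexes help paused RNA polymerase II to move into the gene body. In the degron system auxin acts as a glue between the tag and the plant F-box protein, which leads to ubiquitination and destruction of the tagged protein, and removal of auxin lets newly made protein accumulate. The RNA data hold no measure of the ENL protein.

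The regulatory sequences that bear on the results are those of genes that stood apart after washout. A test on whole reads recovered from the deposited values (limma voom, adjusted p under 0.05) placed 28 genes higher after washout than in both other groups, and the RefSeq promoter table (GRCh38.p14) held 20 of them. In the 250 bases before the start, 4 of these 20 promoters held the word GAAANNGAAA on either strand, against 2.2% of the 9980 promoters of genes tested on reads and 3.1% of all 27305 promoters. This word is the core of the response element that interferon-activated factors bind. Other words were searched too, with shares over genes tested on reads in parentheses. TATAAA also stood in 4 of the 20 promoters (5.1%), TNGCGTG in 3 (6.1%) and CCAAT in 9 (34.9%). TGACGTCA and CACGTG stood in 1 each (2.9% and 8.9%) and TGATGNAA in 0 (1.3%). The 4 genes with GAAANNGAAA are IFI27, IFI6, SAMD9 and OAS3. Their matches, in capitals with up to 35 bases on each side, are shown because these genes changed after washout without having moved with IAA. The stretches lie at chr14:94110593-94110685 (plus strand), chr1:27672241-27672383 (minus strand), chr7:93118071-93118150 (minus strand) and chr12:112938296-112938473 (plus strand) in that order, each written along the gene's own strand.
IFI27: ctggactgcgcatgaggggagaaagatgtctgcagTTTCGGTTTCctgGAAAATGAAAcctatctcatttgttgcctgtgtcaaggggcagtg
IFI6: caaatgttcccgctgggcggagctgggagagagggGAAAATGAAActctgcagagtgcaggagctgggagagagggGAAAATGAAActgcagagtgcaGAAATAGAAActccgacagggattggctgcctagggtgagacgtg
SAMD9: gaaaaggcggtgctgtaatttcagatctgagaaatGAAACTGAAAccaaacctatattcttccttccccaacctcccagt
OAS3: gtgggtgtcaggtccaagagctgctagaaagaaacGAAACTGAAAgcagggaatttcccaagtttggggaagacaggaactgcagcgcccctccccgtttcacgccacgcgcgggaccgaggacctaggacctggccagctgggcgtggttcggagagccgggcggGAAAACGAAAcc

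Another pair of promoters is that of DTL, a replication gene higher after washout that is not on the S phase list used later, and of CHAC1, a stress gene that fell. DTL at chr1:212035705-212035747 (plus strand) holds TTTGGCGC, which is 1 of the E2F words searched on both strands (TTTGGCGC, TTTCCCGC, TTTGCCGC and TTTCGCGC). E2F words stood in 3 of the 20 promoters and in 3 of the 12 of genes lower after washout than in both other groups, against 4.5% of the promoters of genes tested on reads. CHAC1 at chr15:40953227-40953304 (plus strand) holds TGATGNAA on the opposite strand, the word of the element that ATF4 and C/EBP factors share. That word stood in 9 of 293 promoters (3.1%) of genes that rose with IAA and returned, in 4 of 304 (1.3%) of those that fell and returned, in 1.1% of the 5259 promoters of genes tested on FPKM and in 3.2% of all 27305 promoters. Capitals mark the match. These matches are descriptions of letters, not of factors bound.
DTL: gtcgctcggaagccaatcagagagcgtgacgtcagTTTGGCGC
CHAC1: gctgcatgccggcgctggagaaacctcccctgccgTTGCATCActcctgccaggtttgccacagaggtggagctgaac

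Each library held between 18474 and 18853 genes above 0, and whole reads recovered from the deposited values summed to between 16967790 and 17265274 per library. Of 31628 genes in the table, the 8317 that averaged 1 FPKM or more across the 6 libraries were tested (FPKM, fragments per kilobase of gene and per library total, with the gene taken here as its whole span, introns included). MLLT1 mRNA stood at 445 and 402 reads with IAA and at 463 and 428 after washout, a log2 difference of 0.07 (SE 0.10, limma voom adjusted p = 0.675). Of 12 colon epithelial markers 10 passed the FPKM filter, TFF3 was listed at 0 in every library, and LGALS4 had 1 read in control replicate 1 and 0 in the others. The summed FPKM of the 12 markers was 377 and 393 after washout, 325 and 319 with IAA, and 387 and 401 in control, a difference carried by keratins described later. Blood, endothelial and fibroblast markers had 0 genes above the filter. The summed FPKM of the 6 fibroblast markers lay between 0.523 and 0.773, nearly all of it from COL1A1.

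Across all tested genes, 1196 of 8317 (14.4%) differed between washout and IAA, 643 higher (7.73%) and 553 lower (6.65%) after washout (limma on log2(FPKM + 1), Benjamini-Hochberg adjusted p under 0.05), and 2739 (32.9%) had an unadjusted p under 0.05. Most shifts were modest: 71 genes rose and 68 fell at least 1.5-fold on this scale, and 12 rose and 11 fell at least 2-fold. The median over all tested genes was -0.0004. Libraries of the called genes never overlapped between the groups, but that held for 62.1% of all tested genes. The count rested on all libraries: it was 78 and 46 without IAA replicates 1 and 2, 69 and 97 without washout replicates 1 and 2, and 421 and 411 without control replicates 1 and 2, which enter only through the spread. The share of higher calls was 53.8%. With FPKM rescaled to the same sum in every library it was 66.8% (804 higher, 400 lower). On recovered reads, with 13950 genes tested by limma voom, 3764 (27.0%) differed, 1742 higher (12.5%) and 2022 lower (14.5%).

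**Figure D1:**
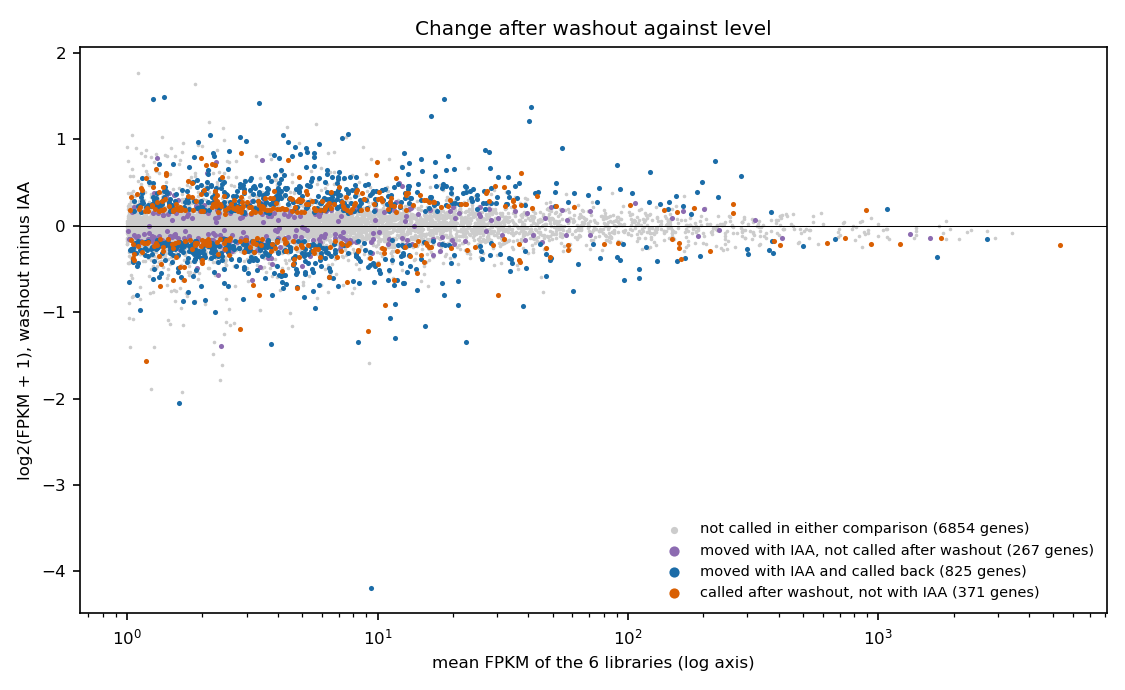
Log2 difference between washout and IAA on the log2(FPKM + 1) scale (vertical axis) against the mean FPKM of the 6 libraries (horizontal log axis), 1 point per tested gene, coloured by class. The 825 genes that had moved with IAA and were called back (blue) lie on both sides of 0 at every level, the 371 genes called only after washout (orange) lie among the smaller shifts, and CYP1A1 is the single point below -4.

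Most of what moved with IAA moved back. IAA had changed 1092 genes (13.1%) against control, 552 higher (6.64%) and 540 lower (6.49%), and 825 of them (75.5%, or 9.92% of tested genes) changed the opposite way after washout. On recovered reads IAA had changed 3567 genes (25.6%), 2052 higher (14.7%) and 1515 lower (10.9%). These comparisons share the IAA libraries, so the count is a description. Of the 825, 432 had fallen with IAA (median log2 change -0.34, and 0.35 after washout) and 393 had risen (0.31, and -0.31 after washout). After washout 745 of the 825 lay within 1.1-fold of control and 815 within 1.2-fold on the log2(FPKM + 1) scale. The added 1 shrinks folds of low genes, and the median returned gene had 4.12 FPKM, so ratios of FPKM can be larger. For a typical returned gene the 95% interval of the log2 difference from control spanned 0.11 on either side, or 1.08-fold, on the same scale. Smaller residual differences could not be resolved. Against control, limma called 0 genes after washout (0.0%, smallest adjusted p = 0.23), while 750 (9.02%) had an unadjusted p under 0.05 and limma voom on recovered reads called 113 (0.81%), 52 higher (0.373%) and 61 lower (0.437%), with 1593 (11.4%) at an unadjusted p under 0.05. Of the 131 genes that IAA had shifted at least 1.5-fold, 114 returned. Of the 35 shifted at least 2-fold, 28 returned, and the other 7 were 5 small RNA genes and 2 pseudogenes, HMGB1P1 and NRBF2P4. The count of returned genes was 68 and 57 without control replicates 1 and 2, 47 and 43 without IAA replicates 1 and 2, and 66 and 91 without washout replicates 1 and 2.

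The largest rises were those of F3, FJX1, SOX4, PLAU and TRIB1. F3, the tissue factor that starts coagulation, stood at 7.17 and 6.91 FPKM with IAA, 20.1 and 22.5 after washout and 26.2 and 27.9 in control. Both washout libraries lay well above IAA and below both control libraries (3.02-fold above IAA, log2 change 1.47, SE 0.07, limma adjusted p = 0.0028). FJX1, a secreted relative of a fly planar polarity kinase, had 1.25 and 0.999 FPKM with IAA, 4.84 and 4.47 after washout and 4.48 and 4.20 in control, so washout and control overlapped (log2 change 1.42, limma adjusted p = 0.0033). SOX4, a transcription factor of progenitor cells, had 19.5 and 20.1 FPKM with IAA, 52.6 and 53.3 after washout and 48.7 and 51.4 in control (2.67-fold, limma adjusted p = 0.00183). Washout lay above control in both libraries by a margin that did not pass (log2 0.08, 95% interval -0.03 to 0.19). PLAU, the urokinase protease that activates plasminogen, had 8.28 and 7.22 FPKM with IAA, 19.7 and 20.3 after washout and 21.5 and 21.2 in control. Its exons overlap those of C10orf55, which also rose, and without the strand counted the pair cannot be told apart. TRIB1, a pseudokinase that brings targets to a ubiquitin ligase, had 21.9 and 21.3 FPKM with IAA, 51.0 and 51.3 after washout and 46.7 and 48.3 in control (2.37-fold).

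The other large rises covered adhesion, signalling and matrix genes. TNS4, a tensin that links integrins to actin, had 3.79 and 4.13 FPKM with IAA, 9.57 and 9.17 after washout and 9.21 and 9.89 in control. BMP4, a bone morphogenetic ligand, had 33.3 and 32.6 with IAA, 63.0 and 61.6 after washout and 66.8 and 68.7 in control, and washout stayed below both control libraries without passing the test against control. CAV1, the coat protein of caveolae, had 2.85 and 3.12 with IAA, 6.35 and 6.49 after washout and 6.18 and 6.05 in control. The kinase PLK2 (1.89-fold), the orphan nuclear receptor NR2F1 (2.26-fold), the sulfotransferases HS3ST1 (2.48-fold) and CHST14 (2.19-fold), the hydroxylase JMJD4 (2.82-fold) and TIGD5 (2.28-fold) completed the leading 15. JMJD4 and TIGD5 overlap SNAP47 and EEF1D. The JMJD4 call was lost in 5 of 6 fits that left out a library, TIGD5 and NR2F1 lost theirs without IAA replicate 1 and without IAA replicate 2, and CHST14 without washout replicate 1 and without washout replicate 2 (adjusted p at most 0.0836 for any of the 30 leading genes).

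The largest falls were in genes of foreign compound metabolism and in early response genes. CYP1A1, an oxidase induced by the aryl hydrocarbon receptor (AHR), stood at 25.7 and 28.5 FPKM with IAA, 0.572 and 0.505 after washout and 0.595 and 0.491 in control. Washout and control overlapped, at 0.0199 of the IAA level (log2 change -4.19, SE 0.07, limma adjusted p = 0.00028). CYP1B1, a related oxidase, had 4.30 and 4.36 with IAA, 0.322 and 0.250 after washout and 0.209 and 0.211 in control, so both washout libraries stayed above control by a margin that did not pass. TIPARP, an ADP-ribosyltransferase that represses AHR, had 14.5 and 15 with IAA, 4.99 and 5.39 after washout and 5.02 and 5.32 in control. CYP1A1 and CYP1B1 reached the filter on mean FPKM only through the IAA libraries, so no share of the AHR pathway list is read. The oxidoreductase NQO1 also fell, from 31.5 and 32.1 to 27.2 and 27.2 (control 26.8 and 28.6), and AHR itself, the receptor, did not pass (log2 -0.12).

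FOS and EGR1 led the fall of immediate early genes, which encode transcription factors switched on within minutes of a stimulus. FOS had 7.04 and 6.66 FPKM with IAA, 1.97 and 2.12 after washout and 2.32 and 2.40 in control. It ended below both control libraries, at 0.299 of the IAA level (limma adjusted p = 0.00183). EGR1 had 38.4 and 36.5 with IAA, 14.7 and 13.7 after washout and 14.8 and 17.0 in control (limma adjusted p = 0.00433). Of 26 tested members of the immediate early list 13 fell and 2 rose after washout, with a median log2 change of -0.31. The AP-1 group gave 5 falls of 7, with JUN from 24.0 and 22.9 to 13.7 and 15.2 FPKM and JUNB from 56.4 and 59.5 to 43.2 and 44.3, whereas FOSL1 (25.1 and 28.0, then 26.7 and 25.6) and FOSL2 (4.48 and 4.41, then 5.01 and 4.75) did not pass. IER5L and KLF10 were the members that rose. The count of falls was 2 without IAA replicate 1 or IAA replicate 2, 3 without washout replicate 1 or washout replicate 2, and 12 and 11 without control replicates 1 and 2, with the list's median between -0.33 and -0.27.

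Among the remaining leading falls, STC2, a secreted glycoprotein induced by endoplasmic reticulum stress, went from 25.3 and 24.0 to 10.2 and 10.6 FPKM and ended below control at 11.3 and 11.2. OVOL1, an epithelial zinc finger repressor, went from 8.92 and 9.14 to 4.18 and 4.15 against 3.79 and 3.58 in control, and SERTAD1, a cofactor of cyclin D kinase and E2F, from 33.0 and 31.1 to 16.7 and 16.2 against 14.6 and 14.7. Those 2 genes stayed above both control libraries. HAS3, a hyaluronan synthase, fell to 0.517 of its IAA level, the stress cytokine GDF15 to 0.505, the developmental factor TBX3 to 0.395, the repressor HES2 to 0.416, the antiproliferative BTG1 to 0.449 and FAM43A to 0.380. Calls of FAM43A and CHAC1 were lost without IAA replicate 1 and without IAA replicate 2, those of BTG1 and GDF15 without IAA replicate 2, and that of TBX3 without IAA replicate 1, IAA replicate 2 or washout replicate 1.

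**Figure D2:**
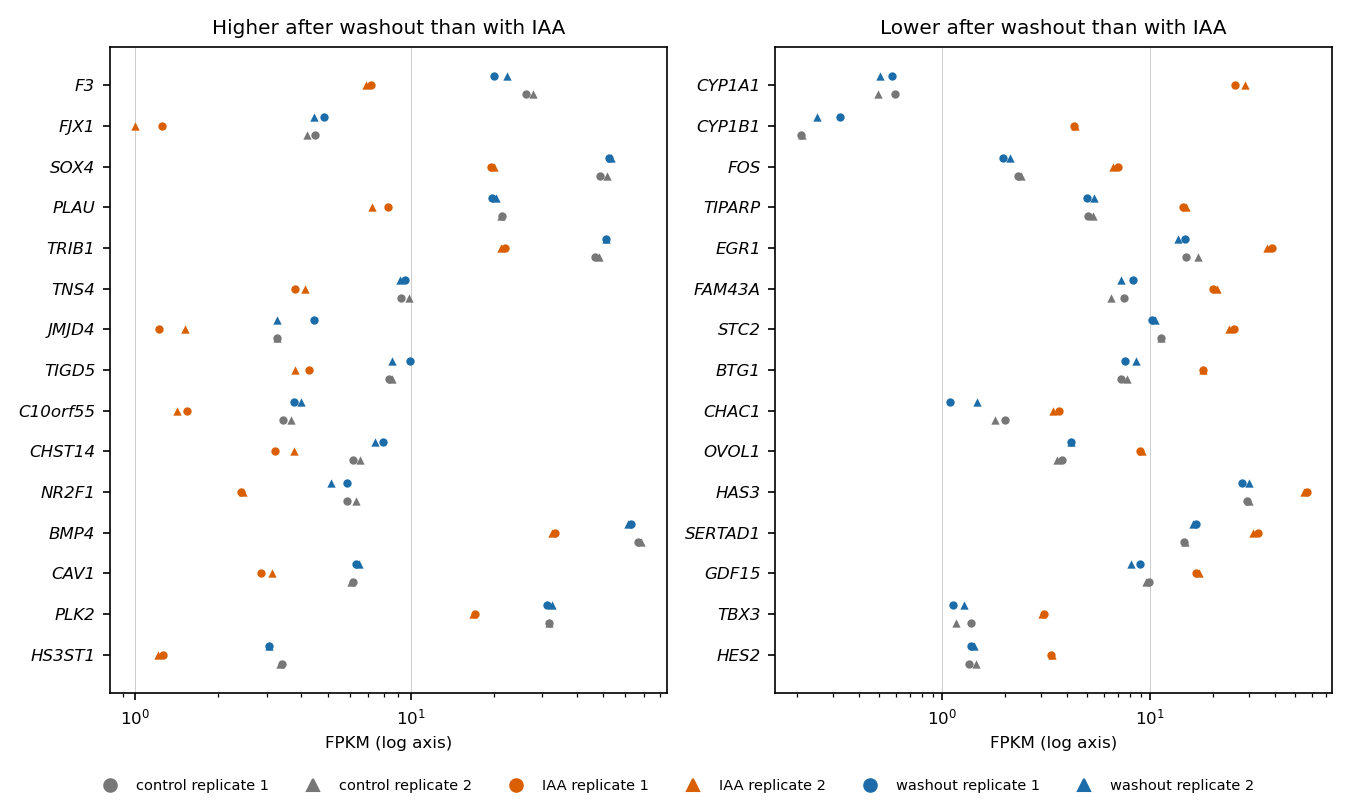
FPKM (horizontal log axis) of the 15 genes with the largest rise (left) and the 15 with the largest fall (right) after washout, with 1 point per library, circles for replicate 1 and triangles for replicate 2. In every row the blue washout points lie nearer to the grey control points than to the orange IAA points. F3, at 20.1 and 22.5 against 26.2 and 27.9 in control, shows the widest remaining gap among the rises. Among the falls CHAC1 ended furthest from control, below it (log2 difference -0.35 on the log2(FPKM + 1) scale).

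Lists of genes with shared roles were then read for how many members moved in each direction, beside 7.73% higher and 6.65% lower over all tested genes. In bulk RNA fewer cells of a type and less RNA per cell cannot be told apart. Genes known for super-enhancers in colon cancer cells, a list written from general knowledge and not mapped here, gave 19 higher and 7 lower of 29 after washout (median 0.38). Its transcription factors gave 10 higher and 1 lower of 13. SOX9, a factor of intestinal progenitors, went from 17.2 and 17.7 to 32.7 and 32.0 FPKM (control 32.3 and 34.8), and MYC, a driver of cell growth, from 60.6 and 62.9 to 101 and 101 (control 106 and 110), just under both control libraries. ZFP36L1, an mRNA decay factor, went from 12.9 and 12.9 to 22.6 and 23.9 (control 21.6 and 21.4). The 7 lower members were EREG, TGFA, IER3, PLAUR, LIF, VEGFA and ELF3, so the list did not move as a block. With 1 library left out 7 to 13 of the colon super-enhancer genes were higher, fewest without IAA replicate 2, and the median stayed between 0.36 and 0.41.

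WNT targets and feedback genes rose in 6 of 9 tested members, with 0 lower and a median of 0.70, and in 5 or 6 of them without any 1 library. DKK1, a secreted WNT inhibitor, went from 151 and 155 to 260 and 255 FPKM against 260 and 261 in control (log2 change 0.75, limma adjusted p = 0.00277). CCND1, cyclin D1, went from 90.2 and 87.2 to 138 and 135 (control 139 and 145). TCF7 (log2 0.20), CD44 (0.18) and NOTUM (0.06) did not pass. ERK feedback genes rose in 5 of 13 members with 0 lower (median 0.19; on reads 12 higher and 3 lower of 22), among them the receptor signalling inhibitor SPRY4, from 10.1 and 10.7 to 15 and 14.4 (control 14.9 and 14.6). The phosphatases DUSP6 (75.8 and 79.0, then 83.7 and 83.2) and DUSP4 did not pass. With 1 library left out the ERK feedback count was 0 to 3, at 0 without IAA replicate 2 and without washout replicate 1.

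Genes of the actin cytoskeleton and of epithelial structure also came back upward. In the list of YAP targets and SRF cytoskeleton genes, 7 of 12 actin genes rose and 0 fell (median 0.24), against 3 higher and 2 lower of 8 YAP targets. MYL9, a myosin light chain, went from 8.67 and 9.18 to 15.7 and 15.1 FPKM (control 15.3 and 16) and TAGLN, transgelin, from 2.84 and 2.88 to 4.63 and 4.29 (control 4.57 and 5.08). The YAP targets GADD45A and AJUBA fell, and CTGF (log2 -0.18) and CYR61 (0.15) did not pass. All 5 tested keratins rose. KRT80, a type II keratin, went from 2.98 and 3.07 to 6.11 and 6.40 (2.07-fold, control 6.31 and 6.45), and the simple epithelial keratins KRT18 (135 and 127, then 160 and 172), KRT19 (104 and 107, then 126 and 129) and KRT8 (22.9 and 23.0, then 27.1 and 28.2) rose by smaller factors (1.27-fold for KRT18, 1.21-fold for KRT19). The exons of KRT8 and KRT18 overlap in the annotation. Junction genes rose in 4 of 18, integrin and matrix genes in 3 of 18, and 0 fell in either on FPKM. On reads 12 junction genes were higher and 5 lower of 23, and 14 integrin and matrix genes were higher and 0 lower of 25. For the whole of YAP targets and SRF cytoskeleton the count of rises was 3 to 8 with 1 library left out, lowest without washout replicate 1, and for epithelial keratins and junctions it was 1 to 4, at 1 without any of the 4 IAA or washout libraries.

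The growth machinery showed smaller and mostly upward shifts. In the ribosome biogenesis list 13 of 64 genes rose and 0 fell (median 0.09), with POLR1B, a subunit of RNA polymerase I, from 3.89 and 3.74 to 5.31 and 5.38 FPKM (control 5.48 and 5.29), RRS1, an assembly factor of the large subunit, from 43.7 and 40.3 to 55.6 and 54.8 (control 54.6 and 57.5), and MYBBP1A, a nucleolar protein, from 7.31 and 7.77 to 10.2 and 10.0 (control 10.8 and 10.8). In nucleotide synthesis 9 of 28 rose and 1 fell (median 0.15). CTPS1, which makes CTP, went from 4.67 and 4.44 to 5.66 and 5.76 (control 5.44 and 5.65) and the purine enzyme PAICS from 8.72 and 8.53 to 10.4 and 10.5 (control 10.4 and 10.1). MTHFD2, the mitochondrial folate enzyme and an ATF4 target, was the member that fell. These shifts were small against the spread: without any 1 library 0 genes of nucleotide synthesis were called, and ribosome biogenesis gave 2 without either control library and 0 without any other, though the medians stayed between 0.09 and 0.12 and between 0.12 and 0.16. Limma voom on recovered reads called 27 higher and 1 lower of 70, and 19 higher and 1 lower of 33.

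Several developmental regulators were called back as well. The NOTCH ligand JAG1 went from 2.69 and 2.75 to 5.01 and 4.63 FPKM (control 4.87 and 4.85) and the NOTCH target HES1 from 3.95 and 4.63 to 7.77 and 6.75 (control 6.86 and 7.63). Within the NOTCH list 4 of 10 rose and HES2 fell, and the list's median was -0.06, so its median and its counts differ in sign; on reads 5 were higher and 6 lower of 19. Feedback and target genes of the BMP and TGF-beta pathways rose in 5 of 7, ID1, ID3, SMURF2 and TGIF1 among them, and fell in 1 (SKI), with ID1, a helix-loop-helix inhibitor, from 85.0 and 83.5 to 112 and 108 (control 117 and 119). HOXA11, a positional homeobox gene, went from 1.42 and 1.01 to 2.87 and 2.86 (control 2.71 and 2.47), 1 of 3 HOXA genes that rose of 5 tested, and 0 of 6 genes of the other HOX clusters passed. Of 7 circadian genes 4 rose, with CLOCK from 1.34 and 1.41 to 2.00 and 1.95 (control 1.87 and 1.94) and the repressor BHLHE40 from 4.80 and 4.72 to 7.08 and 8.73 (control 8.29 and 8.35). With 1 library left out 0 or 1 of the HOX genes and 0 or 1 of the circadian genes were called.

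The integrated stress response, in which ATF4 raises amino acid supply and feedback genes when translation initiation is curbed, went down after washout. Of 24 tested members 12 fell and 2 rose (median -0.23). ATF4 had 123 and 121 FPKM with IAA, 76.1 and 81.7 after washout and 85.4 and 89.7 in control, so both washout libraries lay below both control libraries (log2 change -0.62 from IAA, limma adjusted p = 0.00808). CHAC1, which degrades glutathione, had 3.63 and 3.43 with IAA, 1.1 and 1.47 after washout and 2.00 and 1.80 in control, again below control in both libraries. PPP1R15A, which restores translation, fell from 27.9 and 24.9 to 15.4 and 13.9 (control 13.3 and 14.7) and DDIT3, a transcription factor of prolonged stress, from 5.14 and 5.07 to 2.82 and 3.26 (control 2.40 and 2.67). The amino acid transporter SLC38A2 and the proline enzyme ALDH18A1 were the members that rose. Of the 12 aminoacyl-tRNA synthetases known as ATF4 targets 4 fell and 0 rose, and of the 7 others 0 passed. On reads 3 of 8 others were higher and 0 lower. The count of falls in the integrated stress response was 1 without IAA replicate 1 or IAA replicate 2, 2 and 5 without washout replicates 1 and 2, and 10 without either control library, with medians between -0.26 and -0.21.

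Genes of protein folding in the endoplasmic reticulum fell in 8 of 24 and rose in 0 (median -0.10). HERPUD1, of the degradation machinery, went from 6.23 and 5.35 to 2.98 and 2.78 FPKM (control 2.82 and 2.57) and the chaperone HSPA5 from 132 and 131 to 107 and 114 (control 111 and 111). By role the calls were 4 of 10 chaperones, 4 of 8 degradation genes and 0 of 5 disulfide isomerases. Heat shock genes fell in 5 of 25 and rose in 0, with a median of -0.03 close to that of all genes. HSPA1B went from 148 and 134 to 93.0 and 91.9 (control 103 and 96.0), and its near-identical copy HSPA1A makes its reads uncertain. Of 6 NRF2 regulators 3 fell, the small MAF proteins MAFG (16.9 and 17.3, then 11.1 and 9.70) and MAFF, and NFE2L2 itself, while 0 of 11 glutathione and thioredoxin genes passed. Autophagy genes fell in 3 of 9, with MAP1LC3B, the autophagosome marker LC3, from 6.29 and 6.49 to 4.42 and 4.71 (control 4.29 and 4.47). Without 1 of the IAA or washout libraries the ER folding count was 0 or 1 and the heat shock count 0.

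Genes that control polymerase pause release fell more often than they rose. Of 12 tested members of the BET and P-TEFb list 6 fell and 0 rose (median -0.16). BRD2, a BET reader of acetylated histones, went from 53.3 and 55.6 to 42.7 and 44.0 FPKM (control 43.0 and 43.9). MEPCE, which caps the inhibitory 7SK RNA, went from 24.9 and 23.2 to 18.4 and 19.2 (control 17.4 and 18.5), and HEXIM1, the P-TEFb inhibitor, from 49.8 and 48.7 to 42.9 and 42.2 (control 42.4 and 41.2). The kinase CDK9 (log2 0.09) and BRD3 (-0.15) did not pass. With 1 library left out 1 of the 12 was called. Of 13 members of the list of ENL and its complexes 1 rose and 1 fell.

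Growth-arrest and ligand genes shared this direction. BTG and TOB proteins, which recruit deadenylases to mRNA, fell in 4 of 5: BTG2 went from 15.5 and 15.7 to 10.2 and 9.23 FPKM (control 10.8 and 10.2) and TOB1 from 17.4 and 17.4 to 12.7 and 11.5 (control 12.9 and 13.7), while BTG3 rose. The p53 targets gave 9 falls and 2 rises of 33, with CDKN1A, the p21 cell cycle inhibitor, from 41.8 and 41.6 to 29 and 28.4 (control 30.3 and 31.1), and MDM2 at 7.72 and 7.35, then 6.94 and 6.56, without passing. EGF receptor ligands fell in 3 of 4: HBEGF went from 2.68 and 2.71 to 1.15 and 1.2 (control 1.48 and 1.29) and EREG, epiregulin, from 56.9 and 57.6 to 39.2 and 36.5 (control 46.2 and 46.6). Both ended below both control libraries. AREG and the receptors did not pass, and the count was 0 to 3 with 1 library left out, at 0 without IAA replicate 2. Of 16 genes of the mevalonate and sterol pathway 4 fell and 0 rose. With 1 library left out the p53 targets gave 1 to 5 falls, fewest without IAA replicate 2.

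G2 and mitosis genes fell in 8 of 55 and rose in 0 (median -0.13). ARL6IP1 went from 39.6 and 42.8 to 31.0 and 29.6 FPKM (control 32.4 and 31.9), the kinesin KIF20A from 15.6 and 15.3 to 11.5 and 12.6 (control 12.3 and 12.5), and the mitotic kinase CDK1 from 16.9 and 16.7 to 14.7 and 14.6 (control 14.6 and 14.7). With FPKM rescaled to equal sums 4 were lower, with 1 IAA or washout library left out 0 were, and limma voom on recovered reads called 32 lower and 2 higher of 63. Beside these, several large families were little changed. Cytosolic ribosomal proteins gave 0 higher and 1 lower of 76, the respiratory chain 0 and 1 of 57 (median 0.005 on FPKM and -0.017 on reads), and the proteasome, snoRNA host genes and iron genes 0 of 27, 0 of 18 and 0 of 6. For the proteasome limma voom on reads called 4 lower of 32.

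**Figure D3:**
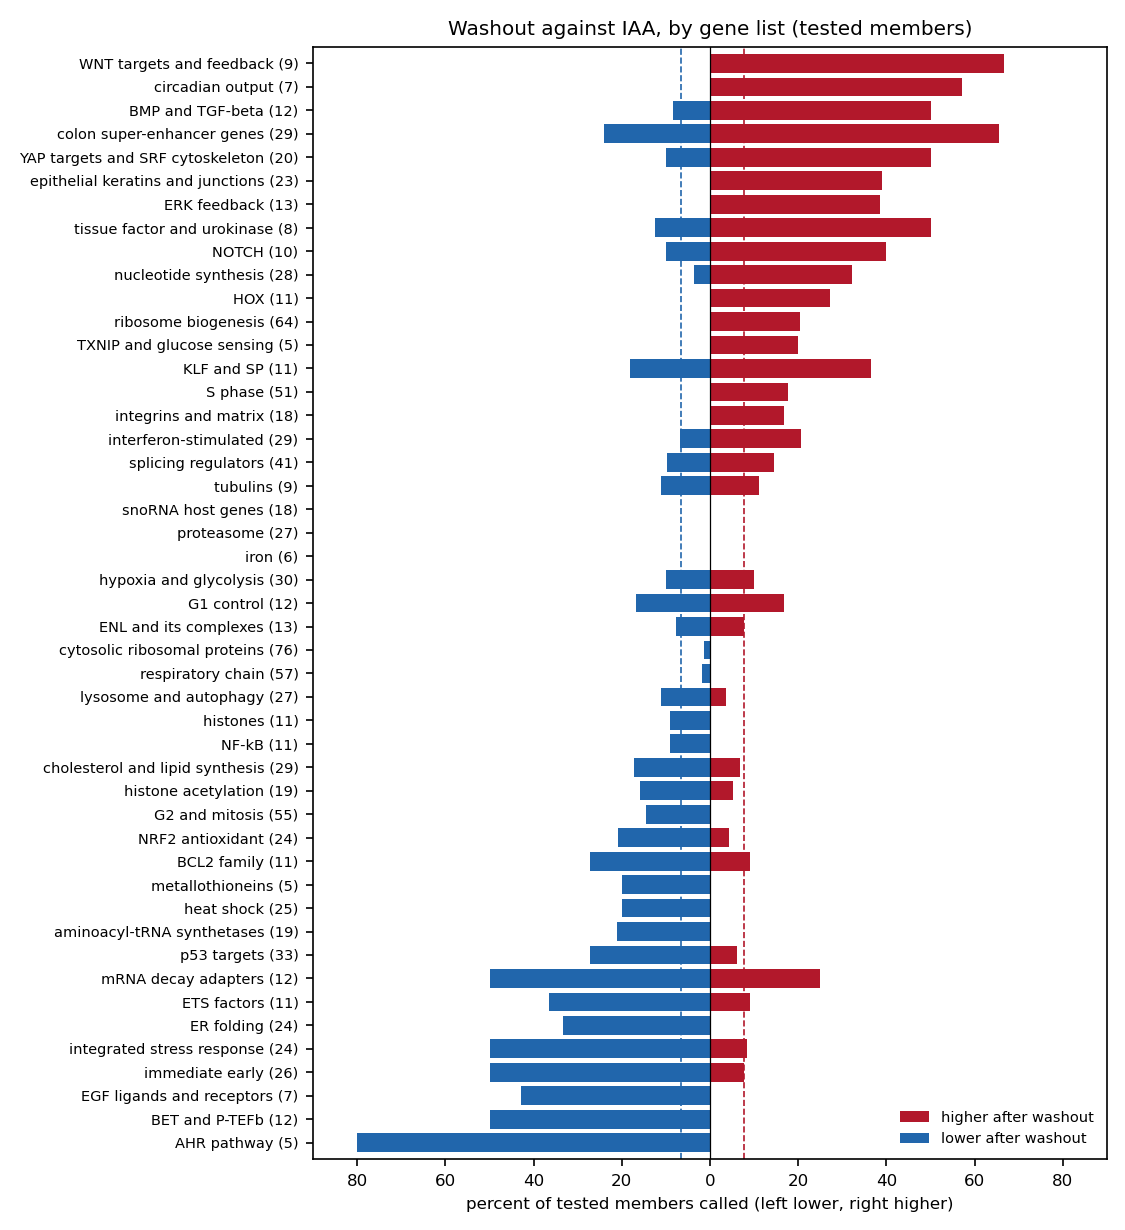
Percent of tested members of each list that were called higher (red, right) or lower (blue, left) after washout than with IAA. The 47 lists with at least 5 tested members, given in parentheses, are in order of percent higher minus percent lower. Dashed lines mark the shares over all tested genes, 7.73% higher and 6.65% lower. Lists of WNT and super-enhancer genes stand toward the top and those of the AHR pathway and immediate early genes toward the bottom. The AHR bar rests partly on CYP1A1 and CYP1B1, which passed the filter only through IAA. Cytosolic ribosomal proteins lie near 0 on both sides.

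Whether returning genes stopped short of control or went past it could be seen only on recovered reads, since limma on FPKM called 0 genes against control. On reads 2603 genes (18.7%) returned without a call against control, 16 (0.115%) stopped short, 17 (0.122%) went past and 21 (0.151%) remained on the IAA side. On FPKM the last 3 classes held 0 genes. F3 was short of control: IAA had 1482 and 1457 reads, washout 4229 and 4701, and control 5471 and 5877 (log2 -0.35 against control, limma voom adjusted p = 3.0e-06). For KITLG, the stem cell factor, IAA had 18916 and 20337, washout 27748 and 27352, and control 33327 and 32380 (log2 -0.25, limma voom adjusted p = 4.0e-08). In both genes the washout libraries lay between the other groups without overlap. Of the 16 short genes 15 had fallen with IAA, also PHLDB2, an anchor of microtubules at the cell edge (control 10948 and 11128, IAA 4771 and 4911, washout 9708 and 9998), and the osmotic stress factor NFAT5. FAT4, a large cadherin, was the 1 that had risen, with 85 and 90 reads in control, 253 and 288 under IAA and 150 and 175 after washout.

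EREG and ALDH1A3 went past control. EREG reads numbered 18134 and 18449 in control, 22071 and 22799 under IAA, and 15478 and 14339 after washout (log2 -0.30 against control, limma voom adjusted p = 4.0e-08). ALDH1A3, which makes retinoic acid, had 24554 and 24191, then 29280 and 31068, then 21230 and 21641 (log2 -0.18, limma voom adjusted p = 9.0e-05). Washout was the lowest group for both. The 10 genes that had risen with IAA and ended below control also held (reads in the order control, IAA, washout) the cystine transporter SLC7A11 (1074 and 1043, then 1746 and 1733, then 876 and 829), the leucine transporter SLC7A5 (11881 and 12750, then 17570 and 18010, then 11415 and 11040) and DDIT4, an inhibitor of mTORC1 (1052 and 961, then 1430 and 1378, then 693 and 908). The pseudogene ATF4P3 was another, and its reads may come from ATF4. Of the 7 that had fallen and ended above control, S100A10, a partner of annexin A2, had 1839 and 1800, then 1491 and 1467, then 2157 and 2509, and RHOBTB3, an ATPase of the Golgi, 2499 and 2417, then 1844 and 1953, then 3230 and 2911.

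Of the genes that remained on the IAA side, PAQR4, a progestin receptor relative that shares sequence with PKMYT1, had 1053 and 1065 reads with IAA, 1116 and 1008 after washout and 796 and 872 in control. LTV1, which assembles the small ribosomal subunit, had 1619 and 1773, 1722 and 1867, and 2032 and 2289 in that order. IAA and washout overlapped in these genes and control stood apart. For 360 of the 13950 genes tested on reads the recovered reads of all libraries share a factor, which leaves their scale uncertain. With such factors divided out, an alternative chosen after seeing the data, 24 genes remained on the IAA side, of which 18 were among the 21. Calls against control were fragile. Of 66 named genes with such a call on reads, 5 (F3, KITLG, ALDH1A3, EREG and HMGA2) kept it without each library in turn. Leaving out control replicate 1 or 2 lost 52 or 57 of the calls, washout replicate 1 or 2 lost 33 or 28, and either IAA library lost 0. RHOBTB3 (adjusted p = 0.0621) and S100A10 (0.0626) lost theirs only without control replicate 2 among these fits, and FAT4, PHLDB2, NFAT5, SLC7A11, SLC7A5, DDIT4, PAQR4 and LTV1 each without several libraries. The highest values were 0.663 for DDIT4, 0.55 for SLC7A5 and 0.419 for LTV1. The SLC7A5 call was also lost with quantile normalisation, with a minimum mean of 100 reads, with a replicate block and with limma-trend on log2 reads per library total.

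**Figure D4:**
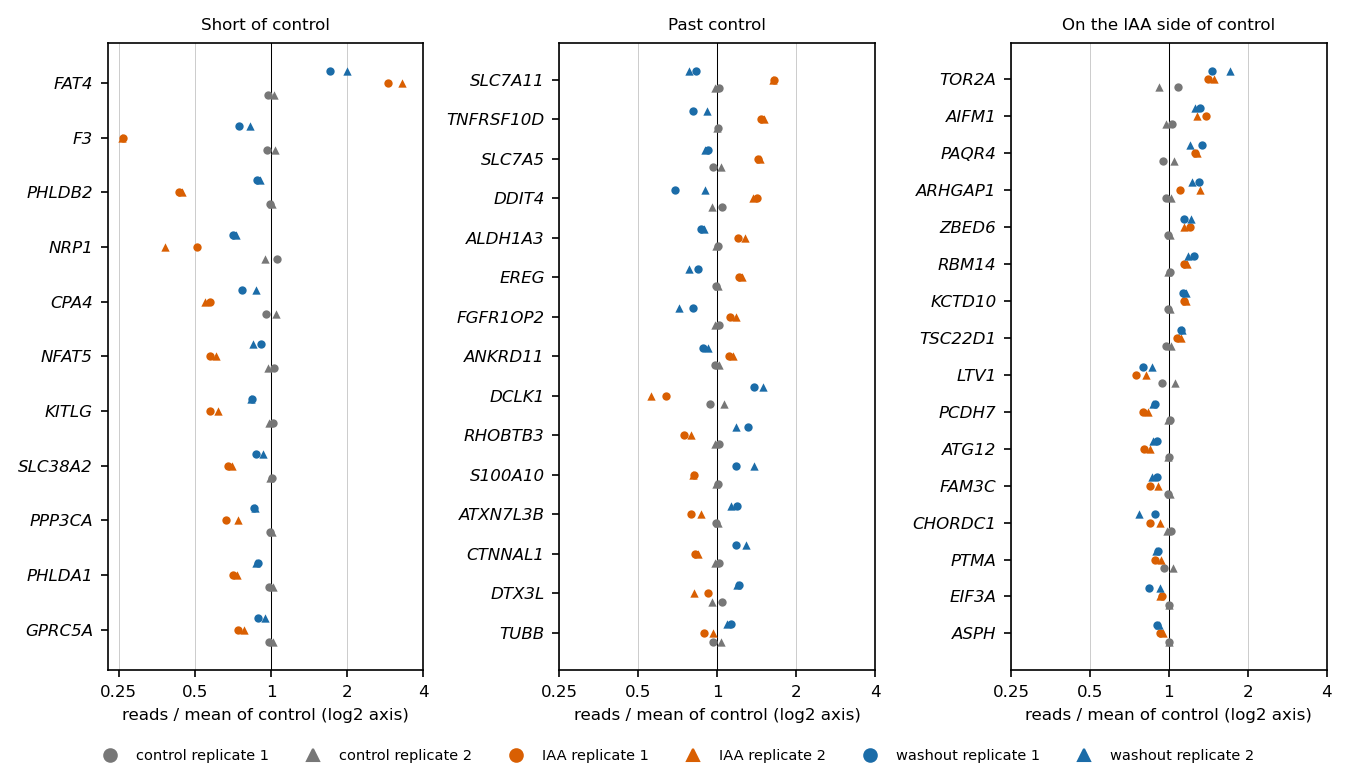
Recovered reads of each library divided by the mean of the control libraries (horizontal log2 axis, not scaled to library totals) for named genes that stopped short of control, went past control or remained on the IAA side. F3 and KITLG show blue washout points between orange IAA and grey control points, EREG and SLC7A11 show washout on the far side of control, and PAQR4 shows washout beside IAA. ZBED6, also drawn, was not called against control once the factor shared by its recovered reads was divided out (limma voom adjusted p = 0.263).

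Genes that IAA had moved and that were not called after washout numbered 267 (3.21%), of which 159 had risen (median -0.15 after washout) and 108 had fallen (0.16). These medians pointed back toward control. Both comparisons use the same IAA libraries, so the choice of genes alone favours that direction, and the medians do not show a return. Nor does a p that misses the threshold show that a gene stayed. On reads such genes numbered 930, of which 909 (6.52%) had no call against control either and 21 remained on the IAA side. By their class on reads, 150 of the 267 were called as returned, 77 were again not called after washout, 5 remained on the IAA side with a call against control and 4 stopped short. TFAP4, a MYC target factor, had 1.19 and 0.942 FPKM with IAA, 1.81 and 1.49 after washout and 1.93 and 1.84 in control. HES6, a neuronal differentiation factor, had 19.1 and 21.6, then 16.4 and 15.2, with 13.3 and 14.7 in control. THAP1 was different in level, at 1.85 and 2.04 with IAA, 2.18 and 1.91 after washout and 2.61 and 2.94 in control, where washout and IAA overlapped. The count was 2 and 0 without control replicates 1 and 2, 3 and 26 without IAA replicates 1 and 2, and 466 and 443 without washout replicates 1 and 2.

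Few genes were called as changed after washout without having moved with IAA. A gene called in washout against IAA but not in IAA against control may have missed the second threshold narrowly, so the class was restricted to genes that also differed from control in the same direction. By limma on FPKM 0 genes met this rule (0.0%). That count was fixed, since limma on FPKM called 0 genes against control, so it does not show that few genes changed. There were 371 (4.46%) called after washout only against IAA, 211 higher and 160 lower. Their median change with IAA was -0.14 and 0.15, opposite in sign to the change after washout (0.25 and -0.24). Both comparisons use the same IAA libraries, so the choice of genes alone favours opposite signs, and these medians do not show that the genes had moved with IAA. On reads this class held 1075 genes (7.71%). Of the 371, limma voom on reads placed 172 as returned at control level and 18 in the strict class. IFIT1, an RNA sensor, shows the first kind: 0.882 and 0.912 FPKM with IAA (limma adjusted p = 0.0521 against control), 1.74 and 1.98 after washout (limma adjusted p = 0.0244 against IAA) and 1.74 and 1.32 in control. In CITED4, a transcriptional cofactor, control (0.980 and 1.16 FPKM) and IAA (0.896 and 1.25) overlapped below washout (2.13 and 2.19, log2 change 0.61, limma adjusted p = 0.0241), on few reads and without a call against control (limma voom adjusted p = 0.18). The homeobox gene DLX2 had 1.13 and 1.45 FPKM in control, 0.738 and 0.861 under IAA, and 1.78 and 1.89 after washout. The count in the strict class was 13 with a filter of mean FPKM 0.1, 19 with no filter and 52 on reads.

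On reads the 52 genes (0.373%) were 28 higher and 24 lower after washout than in both other groups. All 28 higher genes had both washout libraries above every other library, as did 19 of the 24 lower genes below. These genes were chosen for a difference from both other groups, so the separation follows largely from the choice. Its share over all genes tested on reads was not counted. Of the 28, 21 were tested on FPKM and 11 were called there against IAA; of the 24, 18 and 7. Of the 28, 4 were RNA sensing and antiviral members of the interferon-stimulated list: IFI27, SAMD9, IFI6 and OAS3. IFI27, a mitochondrial membrane protein, stood at 348 and 340 reads after washout, 227 and 171 with IAA, and 218 and 197 in control (log2 0.73 against control, SE 0.14, limma voom adjusted p = 0.0019). In the same order SAMD9, an antiviral factor that halts translation, had 691 and 757, 471 and 419, and 564 and 403 (log2 0.60, limma voom adjusted p = 0.00066). OAS3, a sensor of double-stranded RNA, had 3393 and 3246, 2536 and 2698, and 2728 and 2589 (limma voom adjusted p = 9.4e-05). In each the washout libraries stood above all others and control and IAA overlapped.

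The call of IFI27 was lost without control replicate 2 (adjusted p = 0.125), that of SAMD9 likewise (0.268), and that of IFI6 without control replicate 2 or washout replicate 1. In these genes control replicate 1 was the higher control library. Over the interferon-stimulated list, RNA sensing and antiviral genes gave 6 higher and 0 lower of 20 on FPKM, of which 0 had moved with IAA (median 0.25, and -0.10 with IAA), and 18 higher and 0 lower of 35 on reads, where IAA had raised 1 and lowered 6. Interferon signalling genes went the other way, with 2 lower of 9 (median -0.18): IRF1, an inducible factor, fell from 3.10 and 2.83 to 2.19 and 2.08 FPKM (control 1.83 and 1.78), and STAT2 from 3.94 and 3.97 to 3.34 and 3.26 (control 2.81 and 2.97). Without 1 of the IAA or washout libraries 0 of the interferon-stimulated list were called on FPKM, with the median between 0.13 and 0.20.

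In the S phase list the calls after washout were also mostly of genes not called with IAA. Of 51 tested members 9 rose and 0 fell (median 0.09, and -0.003 with IAA), and 8 of the 9 had not been called with IAA. UHRF1, which carries DNA methylation through replication, was the exception, from 1.79 and 1.83 to 2.53 and 2.60 FPKM (control 2.24 and 2.41). The helicase subunits MCM5 and MCM6, the clamp loaders RFC4 and RFC5, CCNE1, E2F2, E2F8 and UNG were the 8. E2F2, an activator of S phase genes, had 2.22 and 2.13 FPKM after washout, 1.60 and 1.62 with IAA and 1.82 and 1.89 in control, with washout above all others. On reads MCM5 met the strict rule, at 3159 and 2925 after washout, 2411 and 2496 with IAA and 2515 and 2665 in control (log2 0.23, limma voom adjusted p = 0.0111). DTL, which directs the destruction of licensing factors and is not on the list, met it too, with 1633 and 1677 after washout, 1212 and 1313 with IAA and 1376 and 1424 in control (limma voom adjusted p = 0.038), and lost its call without any 1 of the control or washout libraries (at most 0.356). The S phase count was 14 with FPKM rescaled to equal sums, 25 higher and 3 lower of 68 on reads, 2 without either control library and 0 without any other.

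The other higher genes fell on no list more than once. HES4, a NOTCH target, had 805 and 756 reads after washout, 545 and 585 with IAA and 586 and 592 in control (log2 0.41, limma voom adjusted p = 0.0069). S100A11, a calcium-binding protein, had 893 and 917, 656 and 745, and 667 and 748 in the same order. The remainder included the transcription factors CREB5 and TCF19, the thrombin receptor F2R and the YAP partner TEAD1. Their washout libraries exceeded all 4 others, while HES4 also lost its call without either control library or washout replicate 1 (at most 0.128).

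The 24 genes lower after washout than in both others included HMGA2, VEGFA, NDRG1, HSP90AA1 and YARS. HMGA2, a chromatin architectural protein of fetal and tumour cells, had 10527 and 10325 reads after washout, 12200 and 12847 with IAA and 12077 and 12239 in control (log2 -0.22 against control, SE 0.03, limma voom adjusted p = 7.6e-05), and kept this call without each library. VEGFA, the endothelial growth factor, had 1492 and 1576, 1922 and 1801, and 1815 and 1881 in that order (log2 -0.27, limma voom adjusted p = 0.013, up to 0.222 without control replicate 1, control replicate 2 or washout replicate 1). NDRG1, which like VEGFA answers to hypoxia, had 3315 and 4073, 4181 and 5068, and 4376 and 4394. HSP90AA1, the inducible HSP90 chaperone, had 29176 and 29480, 32340 and 33059, and 32095 and 32684 (limma voom adjusted p = 0.00066). YARS, the tyrosyl-tRNA synthetase and an ATF4 target, had 2555 and 2369, 3151 and 2958, and 2810 and 2875. In each the washout libraries lay below the others. The NDRG1 call against control was lost without control replicate 1, control replicate 2 or washout replicate 1, and with quantile normalisation. On FPKM NDRG1 was not called against IAA (limma adjusted p = 0.161). YARS lost its call against control without either control library or washout replicate 2, with quantile normalisation and with a replicate block. No response to hypoxia is read from NDRG1 and VEGFA. ZFAS1, an antisense RNA that overlaps ZNFX1, was lower as well, and without strand its reads cannot be assigned. Among the 24 were 5 processed pseudogenes of abundant mRNAs, where reads of the parent genes cannot be told apart. The count of 52 was 11 and 8 without control replicates 1 and 2, of which 9 and 5 were among the 52. It was 54 and 57 without IAA replicates 1 and 2 (38 and 40 among the 52), 33 and 49 without washout replicates 1 and 2 (23 and 26), 28 with quantile normalisation (27) and 60 with shared factors divided out (49).

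**Figure D5:**
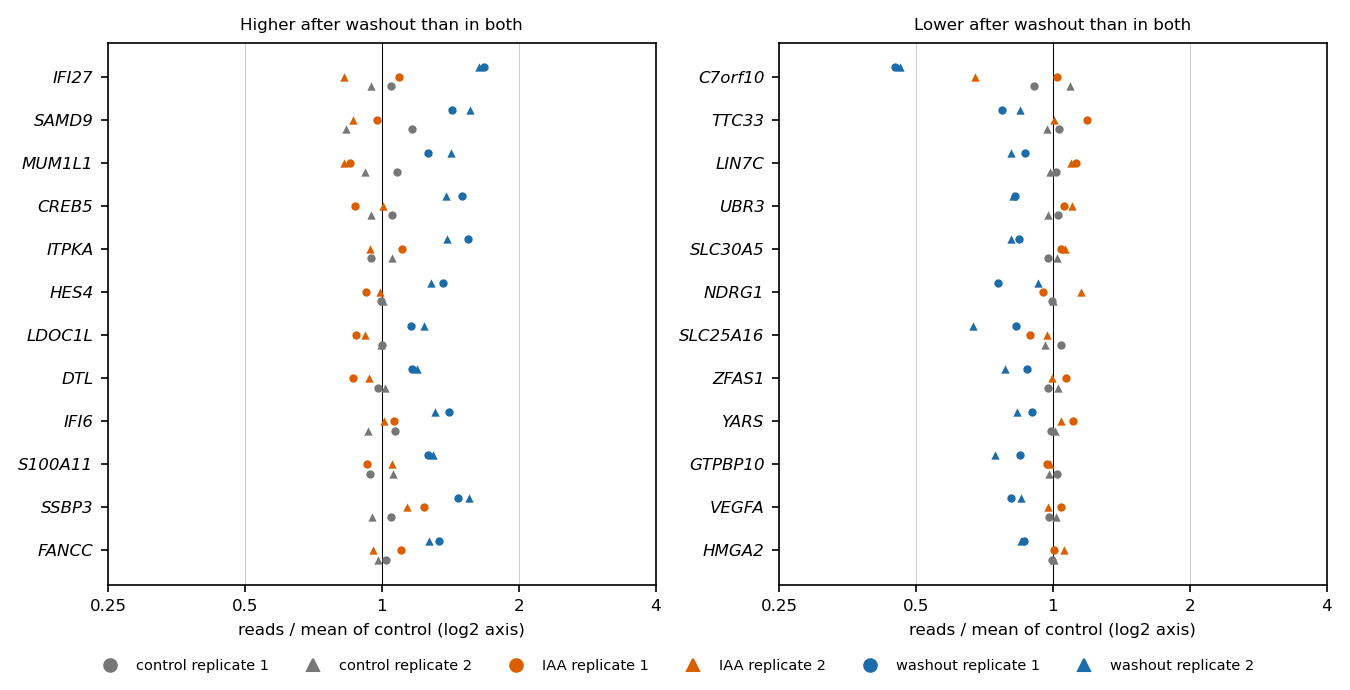
Recovered reads of each library divided by the mean of the control libraries (horizontal log2 axis, not scaled to library totals) for 12 higher and 12 lower genes of the 52, those with the largest change against IAA among genes whose washout libraries stand apart, with pseudogenes, small RNAs and clone-named genes left out. Blue washout points stand to the right for IFI27, SAMD9 and IFI6 and to the left for HMGA2 and VEGFA; orange IAA points lie on average nearer to the grey control points than to washout, though in several genes, among them DTL, LDOC1L and LIN7C, both lie outside the control pair. LDOC1L and TTC33 were not called against control once factors shared by their recovered reads were divided out.

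By gene type, 9.02% of 6311 tested protein-coding genes were higher and 7.45% lower after washout, against 3.28% and 4.5% of 1554 pseudogenes. Promoter words differed between the returned classes. CCAAT, the word of the NF-Y factor, stood within 250 bases before the start in 142 of 293 genes that had risen with IAA and returned (48.5%), in 90 of 304 that had fallen and returned (29.6%) and in 36.6% of the 5259 promoters of genes tested on FPKM. TATAAA stood in 10.2%, 5.3% and 4.9% of the same sets. These shares were counted on both strands and are given without a test.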

How the data were processed

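Poly(A) RNA of 6 libraries (control, IAA and washout, 2 each) was compared from the authors' deposited FPKM table, 1 value per gene and library. The submitters' processing notes name HISAT, Bowtie2, HTSeq and edgeR with hg19. The sources used here do not give versions, roles, annotation release or strand. Low values were whole multiples of a step that fits division by the gene span, introns included, so whole reads were recovered for 99.81% of 21707 genes above 0 (tolerance 0.02 reads); spans and overlaps came from GENCODE 29. Recovered reads share a common factor in 360 genes tested on reads (2 in 270, 3 in 31, 4 or more in 59), by chance or because the span is a multiple of the authors' length; reads and precision of such genes may then be overstated. The FPKM denominators that the steps imply were 16430000 to 16760000 reads per library, which sets the precision of low genes. Recovered reads summed to more than the denominator in every library (16967790 to 17265274). The reason was not tested, and reads may be overstated in other genes too.

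Genes averaging 1 FPKM or more were tested with limma-trend (limma 3.58.1, R 4.3.3) on log2(FPKM + 1), fitting 1 mean per group over all 6 libraries and 3 residual degrees of freedom, two-sided, Benjamini-Hochberg adjusted p under 0.05. Folds given for single genes are ratios of mean FPKM, and errors are SE. Fold thresholds and fold intervals are on the log2(FPKM + 1) scale. Limma voom on recovered reads (mean of at least 20) was run as an alternative, as were other pseudocounts, filters, scalings and leaving out each library. Scripts were tested on simulated data.

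Named genes are the 15 largest rises and falls with groups that do not overlap, up to 12 in each direction of the class changed only after washout, up to 10 of the classes short of, past and apart from control, list members and MLLT1. The class rules need a call against control, of which limma on FPKM gave 0, and were therefore applied to reads. Genes named from the 371 and 267 genes were chosen after their values were seen. Members and lists were chosen with earlier results of these data known. Replicate numbers did not pair libraries (correlation of deviations 0.043, -0.027 and 0.006).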

Additional observations from a re-analysis of the deposited data

How the results depend on the processing

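The 2 libraries per group limit every count. Pseudocounts of 0.1 and 5 and FPKM rescaled to equal sums left each of the counts below within 1.5 times, and no leading gene or gene called against control on reads changed direction under any setting. Genes changed between washout and IAA numbered 1196, 3764 on recovered reads, 413 with only the 2 groups fitted, 532 with a replicate block and 46 to 421 with 1 library left out. For IAA against control the values were 1092, 3567, 536, 486 and 50 to 534. Washout against control gave 0, 28 with a filter of mean FPKM 0.1, 48 with no filter and 113 on reads. Returned genes were 825, 2636 on reads, 354 with the block and 43 to 91 with 1 library left out. Genes moved with IAA and not called after washout were 267, 930, 132 and 0 to 466 in the same order. Genes changed only after washout were 0, a count fixed by the 0 calls against control, 13 with a filter of 0.1, 19 with no filter and 52 on reads. That count of 52 became, under settings chosen after seeing the data, 28 with quantile normalisation, 35 with a replicate block, 60 with factors shared by a gene's recovered reads divided out, 11 and 8 without control replicates 1 and 2, 33 without washout replicate 1 and up to 57 without the others. Replicates share only a number, so calls lost under the block are no sign of a weaker effect. Of 30 leading genes, 160 calls were kept and 20 lost with 1 library left out, and 238 kept and 2 lost under other settings. Of 66 genes called against control on reads, 226 calls were kept and 170 lost with 1 library left out, and 339 kept and 54 lost under other settings. The causes were not tested beyond the fewer libraries or genes each setting uses. Genes of long span pass the FPKM filter only at many reads.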
